A study of Mus musculus with 8 samples.

Results

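The liver secretes hormones and carrier proteins that act on other tissues, and several of them are made at rates that follow feeding, fat supply and cellular stress. 9 such genes were described here, a list set by name with earlier results of these data known: *Fgf21*, *Angptl4*, *Angptl6*, *Igfbp1*, *Igfbp2*, *Inhbe*, *Ahsg*, *Fetub* and *Enho*. They are 9 of the 38283 genes of the deposited expression table, and all 9 are among the 11634 genes tested, which had a value above 1 FPKM in at least 1 library. Each of the 9 was above 1 FPKM in all 8 libraries. FPKM scales the fragments of a gene by transcript length and by sequencing depth, so that levels can be compared between genes of different length.

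FGF21 is a fasting and stress hormone that signals through FGF receptors together with the co-receptor β-Klotho, and its gene is a classical target of PPARα and of ATF4. ANGPTL4 inhibits lipoprotein lipase, ANGPTL6 is a related secreted protein, and IGFBP1 and IGFBP2 bind insulin-like growth factors. INHBE is the activin E subunit, fetuin-A (*Ahsg*) and fetuin-B (*Fetub*) are abundant plasma proteins of the cystatin superfamily, and *Enho* encodes the peptide adropin. *Igfbp1* is a textbook gene repressed by insulin, a repression that runs through FOXO1.

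Livers of male C57BL/6 mice were sequenced in 4 groups of 2 libraries. In RORα f/f mice, exons 4 and 5 of *Rora* are flanked by loxP sites but no Cre is present. RORα LKO mice (Alb-cre;RORa f/f) have these floxed alleles together with a Cre that the albumin promoter drives in hepatocytes. From 8 weeks of age each genotype was fed for 10 weeks either the control diet (CD) or a high-fat diet (HFD) with 60% of its calories from fat. Each library pooled the livers of 2 mice, so that 4 mice stand behind each group and p-values measure the spread between pooled libraries. Food was given ad libitum, but the methods do not state the hour of liver collection or any fasting before it. Differences in these between groups could not be told apart from diet or genotype label. *Rora* itself was listed at 8.85 and 8.59 FPKM in the f/f CD libraries and at 7.96 and 8.18 in the LKO CD libraries. On HFD *Rora* was at 7.56 and 7.86 FPKM in f/f and at 7.30 and 8.02 in LKO, so that the genotypes overlapped (log2 fold change 0.014, limma adjusted p = 0.974). A gene-level FPKM also counts the exons that are not excised and does not by itself check the deletion. The directions given here therefore rest on the labels, and the libraries are called LKO-labelled and f/f-labelled.

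Hepatocyte markers were abundant in every library, with the exception of *Alb*, which was listed at 0 in 4 libraries (LKO CD 1, f/f HFD 2, LKO HFD 1 and 2) and at 29902 to 30888 FPKM in the others. A 0 of this kind can be a failed estimate, and *Ahsg* is ranked in the same range of abundance. f/f CD library 2 stood apart because 1 row with no gene symbol took 18.7% of its summed FPKM. 3 of 5 pancreatic acinar markers were at 0 in all libraries, and the sum of the 5 was at most 0.368 FPKM. Spearman's rho between libraries was 0.969 to 0.975 within groups and 0.958 to 0.974 between groups. In bulk liver, fewer cells of a type and less RNA per cell cannot be told apart.

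The 9 genes covered a wide range of abundance. *Ahsg* was at 3592 to 5387 FPKM and ranked between 21 and 28 among all genes of a library. *Fetub* (211 to 328 FPKM) and *Igfbp2* (111 to 203) followed and did not overlap each other. *Angptl4* (45.8 to 85.8), *Inhbe* (26.8 to 52.1) and *Igfbp1* (8.20 to 99.0) overlapped one another. *Enho* was at 5.76 to 18.6 FPKM, *Angptl6* at 2.15 to 6.94 and *Fgf21*, the least abundant, at 1.32 to 5.14. The ratio of the highest to the lowest library was 12.1 for *Igfbp1*, 3.90 for *Fgf21*, 3.23 for *Enho* and 3.22 for *Angptl6*, and between 1.50 and 1.94 for the other 5.

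**Figure D1:**
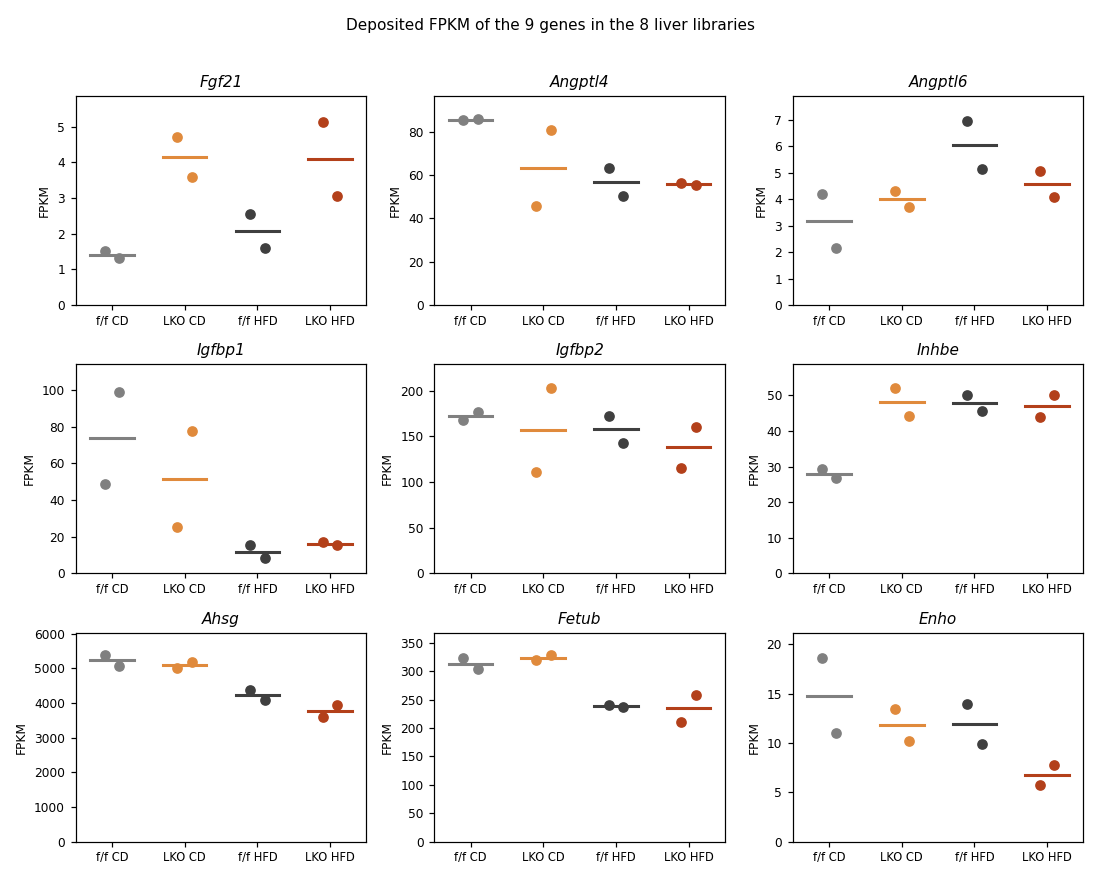
Each panel plots the deposited FPKM of 1 gene on a linear axis from 0, with 1 point per library and a bar at the mean of the 2 libraries of a group. *Fgf21* is higher in the 4 LKO-labelled libraries than in the 4 f/f-labelled ones. *Igfbp1*, *Fetub* and, in these deposited values, *Ahsg* are lower in the 4 HFD libraries. *Inhbe* is low in the f/f CD group alone, at 26.8 and 29.3 FPKM.

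*Fgf21* followed the genotype label. The f/f-labelled libraries were at 1.50 and 1.32 FPKM on CD and at 2.54 and 1.59 on HFD. The LKO-labelled libraries were at 4.70 and 3.60 FPKM on CD and at 5.14 and 3.05 on HFD. Every LKO-labelled library was thus above every f/f-labelled one, and the mean FPKM was 2.95 times as high on CD and 1.99 times as high on HFD. After quantile normalization, libraries of all 4 and 4 did not overlap in 4.84% of the genes tested. Genes higher in LKO without overlap made up 2.48%. On the log2(FPKM + 1) scale, which understates changes of a gene this low, the difference was 1.05 (SE 0.24, limma unadjusted p = 0.00317) on CD and 0.73 (SE 0.24, unadjusted p = 0.0177) on HFD. Over both diets it was 0.89 (SE 0.17, 95% interval 0.50 to 1.29). It did not pass the adjustment over all genes, with limma adjusted p = 0.204 on CD, 0.382 on HFD and 0.124 over both diets, and 0.0614 to 0.294 over the alternatives tried for the last of these. The difference kept its sign with each of the 8 libraries left out, and on HFD it was 0.43 without LKO HFD library 1. The effect of the label did not differ detectably between the diets (interaction -0.32, SE 0.33, limma adjusted p = 0.798). By diet, *Fgf21* differed by 0.32 (SE 0.24) in f/f and by 0.0039 in LKO (95% interval -0.56 to 0.57).

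*Fgf21* lies on the minus strand of chromosome 7 (GRCm38, 45613886 to 45615490). The 250 bases upstream of its start, chr7:45615491-45615740 in the RefSeq promoter table on GRCm38.p6, are shown on the gene's own strand because 2 short elements known from other genes of nutrient and stress control occur in them. Capitals mark TTGCATCA, the C/EBP-ATF response element through which ATF4 acts on its targets, and the E-box CACGTG, which basic helix-loop-helix factors bind. The E-box letters also occurred in the *Igfbp2* window and in 7.15% of all windows.
Fgf21 upstream: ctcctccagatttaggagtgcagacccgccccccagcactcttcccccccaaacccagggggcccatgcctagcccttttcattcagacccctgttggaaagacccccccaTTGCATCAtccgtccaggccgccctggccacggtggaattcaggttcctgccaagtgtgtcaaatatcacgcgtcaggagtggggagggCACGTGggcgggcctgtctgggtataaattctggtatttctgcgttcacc

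The co-receptor and the receptors of FGF21 are themselves liver transcripts, and 6 of 7 genes on a list of FGF21 and adropin receptors were tested. None passed the limma adjusted threshold by genotype label on either diet, and at an unadjusted p under 0.05 the counts were 0 on HFD and 2 on CD, against 9.58% and 12.3% of all genes tested. By diet over both labels 2 rose and 1 fell, against 5.04% and 4.86% of all genes. *Klb*, the β-Klotho gene, rose by 0.24 (SE 0.058, limma adjusted p = 0.0456) and *Fgfr4*, the main FGF receptor of hepatocytes, by 0.21 (SE 0.050, adjusted p = 0.0452). *Fgfr1* fell by 1.08 (SE 0.15, limma adjusted p = 0.0102), from 3.40 to 7.10 FPKM in the CD libraries to 1.45 to 2.04 in the HFD libraries. The *Fgfr1* call held with each of the 8 libraries left out, whereas the *Klb* and *Fgfr4* calls were lost whichever library was left out. *Gpr19*, a proposed adropin receptor, differed by -0.27 (SE 0.13, limma adjusted p = 0.249).

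*Inhbe* was low in 1 group of 4. The f/f CD libraries were at 29.3 and 26.8 FPKM. The LKO CD libraries were at 52.1 and 44.2, the f/f HFD libraries at 50.1 and 45.7, and the LKO HFD libraries at 44.0 and 50.2. The other 6 libraries thus overlapped one another and were all above both f/f CD libraries. In f/f-labelled libraries *Inhbe* rose on HFD by 0.80 on the log2 scale (SE 0.11, limma adjusted p = 0.0373), a 1.71-fold rise in mean FPKM. It was the only one of the 9 genes to pass in that comparison, in which 1.33% of all genes tested passed. In LKO-labelled libraries the same difference was 0.015 (95% interval -0.25 to 0.28). By genotype label *Inhbe* differed by 0.78 on CD (SE 0.11, limma unadjusted p = 0.000229, adjusted p = 0.14), a ratio of 1.72 in mean FPKM, and by -0.0065 on HFD (95% interval -0.27 to 0.26). The difference between the diets in the effect of the label was -0.78 (SE 0.16, limma unadjusted p = 0.00164) and did not pass the adjustment (adjusted p = 0.482). Over both labels the HFD difference was 0.41 (SE 0.078, limma adjusted p = 0.0259), although CD and HFD libraries overlapped. The comparisons that involve the f/f CD group share its 2 libraries and are not independent of each other.

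The *Inhbe* call rested on few libraries. In the f/f-labelled comparison the log2 fold change stayed between 0.72 and 0.88 with each library left out, and limma adjusted p stayed under 0.05 only without LKO CD library 1 (0.0477). It was 0.207 without f/f CD library 2, the library that stood apart, and 0.096, 0.149 and 0.116 without f/f CD 1, f/f HFD 1 and f/f HFD 2. It was 0.0539, 0.0732 and 0.0752 without LKO CD 2, LKO HFD 1 and LKO HFD 2, which enter only through the common estimate of the spread. Over both labels it stayed under 0.05 only without LKO CD 1 (0.0288), and was between 0.0564 and 0.0926 without any of the other 7.

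*Inhbe* lies on the minus strand of chromosome 10 (127348857 to 127354411). TTGCATCA occurred in the 300-base RefSeq windows around the starts of *Fgf21* and *Inhbe* and of no other of the 7 genes that had a window (*Angptl4* and *Enho* had none). It occurred, on either strand, in 0.896% of all 32817 windows. The first base of the element lay 139 bases before the RefSeq start of *Fgf21* and 181 bases before that of *Inhbe*. The elements were chosen with the sequences in view, and a match of letters is not a binding site. The 26 bases around the element, from chr7:45615613-45615638 and chr10:127352013-127352038, both on the minus strand, are set side by side with the element in capitals, and the *Inhbe* stretch lies within the first exon of the longer GENCODE gene model.
Fgf21 element: acccccccaTTGCATCAtccgtccag
Inhbe element: tcctctttcTTGCATCAtgcatgtcc

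Of 14 genes of the activin and inhibin axis, 9 were tested and none passed the limma adjusted threshold in any of the 7 comparisons. At an unadjusted p under 0.05 there was 1 on CD by genotype label, against 12.3% of all genes tested. It was *Inhbc*, which lies in the same activin subunit family as *Inhbe*. *Inhbc* was at 26.9 and 25.1 FPKM in f/f CD and at 32.1 and 36.1 in LKO CD (log2 difference 0.39, SE 0.14, limma adjusted p = 0.329). On HFD it was at 30.0 and 22.1 FPKM in f/f and at 28.0 and 30.9 in LKO, and the groups overlapped. By diet over both labels 4 of the 9 were lower and 0 higher at an unadjusted p under 0.05, against 13% lower and 14.9% higher among all genes tested.

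*Igfbp1* was the member with the largest difference by diet. The CD libraries were at 49.0 and 99.0 FPKM in f/f and at 25.2 and 77.8 in LKO. The HFD libraries were at 15.2 and 8.20 in f/f and at 17.0 and 15.5 in LKO. All 4 HFD libraries were below all 4 CD libraries, and the CD libraries of a group lay far apart from each other. *Igfbp1* fell by 1.93 on the log2 scale over both labels (SE 0.39, limma adjusted p = 0.03), and mean FPKM was 4.49 times as high on CD as on HFD. Within the labels the difference was -2.50 in f/f (SE 0.55, limma adjusted p = 0.0849) and -1.36 in LKO (SE 0.55, adjusted p = 0.224), and the 2 did not differ detectably (interaction 1.14, SE 0.78, adjusted p = 0.712). The LKO difference was -0.59 without LKO CD library 2 and -2.13 without LKO CD library 1, and the interaction 1.90 and 0.37. Without f/f CD library 2 the difference over both labels was -1.67 (limma adjusted p = 0.102). It kept its sign with each of the 8 libraries left out and was called in 2 of these 8 fits, without f/f CD 1 (adjusted p = 0.0493) and without LKO CD 1 (0.0231). In the other 6 the adjusted p was 0.0675 to 0.103. By genotype label *Igfbp1* differed by -0.62 on CD (SE 0.55, limma adjusted p = 0.671), where the libraries overlapped, and by 0.51 on HFD (SE 0.55, adjusted p = 0.809), where both LKO libraries were above both f/f libraries. With 1 library left out these were -1.39 to 0.15 and 0.10 to 0.92.

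*Igfbp1* lies on the plus strand of chromosome 11 (7197782 to 7202546). Its upstream sequence, chr11:7197537-7197781 on GRCm38.p6, is shown because it holds CAAAACA in capitals, the core of the element through which FOXO factors and insulin act on this gene. The letters occurred in 6.29% of all windows, on either strand, and in no other member's window. AGGTCA, a half-site shared by RORα and other nuclear receptors, occurred in 16.3% of windows and in none of the 7. A direct repeat with a single base between, the arrangement of PPAR elements, was searched as AGGNCA followed by N and AGGNCA. It occurred in 0.381% and in none of the 7. The GGGTCA form of the half-site and the A/T-rich stretch that precedes it in RORα elements were not searched. These counts therefore do not show that RORα sites are absent.
Igfbp1 upstream: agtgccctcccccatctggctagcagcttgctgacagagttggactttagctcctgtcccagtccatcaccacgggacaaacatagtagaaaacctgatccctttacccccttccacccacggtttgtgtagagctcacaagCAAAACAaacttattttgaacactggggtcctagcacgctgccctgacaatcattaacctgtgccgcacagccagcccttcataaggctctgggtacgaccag

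*Igfbp2* gave no such pattern. It was at 169 and 176 FPKM in f/f CD, 111 and 203 in LKO CD, 172 and 143 in f/f HFD and 116 and 161 in LKO HFD. The groups overlapped in every comparison, and the log2 differences lay between -0.19 and 0.04. The 95% interval of the diet difference over both labels was -0.52 to 0.40 and that of the genotype difference -0.63 to 0.29, so that changes of that size could not be told from none. Of 15 other genes of the IGF axis 9 were tested, and none passed the limma adjusted threshold in any comparison. By diet over both labels, 3 were higher and 1 lower at an unadjusted p under 0.05, against 14.9% and 13% of all genes tested. *Igf1*, the main circulating growth factor made by the liver, was at 321 to 424 FPKM on CD and at 298 to 382 on HFD (-0.071, SE 0.095, limma adjusted p = 0.674). *Igfals*, the subunit that stabilises IGF complexes in plasma, was at 54.6 and 70.6 FPKM in f/f HFD and at 43.8 and 49.2 in LKO HFD (-0.39, SE 0.14, limma adjusted p = 0.436).

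*Fetub* was lower on HFD under both labels. It was at 323 and 303 FPKM in f/f CD and at 319 and 328 in LKO CD. On HFD it was at 241 and 236 in f/f and at 211 and 258 in LKO. No HFD library reached a CD library, and the 2 labels overlapped on each diet. *Fetub* fell by 0.31 on the log2 scale over both labels (SE 0.071, limma adjusted p = 0.0409), and differed by -0.30 in f/f (SE 0.10) and -0.33 in LKO (SE 0.10). By genotype label over both diets the difference was -0.0060, with a 95% interval of -0.18 to 0.16. The diet call was kept without LKO HFD library 2 alone (limma adjusted p = 0.0373). Without any other library it was lost, with adjusted p between 0.0814 and 0.118 (0.104 without f/f CD 2), and the difference stayed between -0.25 and -0.38 over all 8.

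Over both labels, *Igfbp1*, *Fetub* and *Inhbe* were the 3 of 9 members that passed by diet, 2 lower and 1 higher, in a comparison in which 9.89% of all genes tested passed. At an unadjusted p under 0.05, 2 were higher and 3 lower, against 14.9% and 13% of all genes tested and 27.9% in either direction, and the adjusted calls were 5.04% of all genes higher and 4.86% lower. On the quantile-normalized values, used for all such counts, the libraries did not overlap by diet for 2 members, against 16.7% of all genes tested. In deposited FPKM *Ahsg* did not overlap by diet either, over both labels or within f/f. In f/f-labelled libraries alone 4 members were at an unadjusted p under 0.05 and 6 did not overlap, against 19.2% and 50.3% of all genes. In LKO-labelled libraries alone 0 of 9 passed limma by diet, with 3 at an unadjusted p under 0.05, against 3.02% and 21.3% of all genes, and 4 did not overlap, against 52.9%. The median log2 difference over the 9 was -0.084 over both labels and 0.011 over all genes tested.

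*Ahsg*, which lies 18.9 kb from *Fetub* on chromosome 16, depended on how the libraries were scaled. Its deposited values were 5387 and 5069 FPKM in f/f CD and 5015 and 5170 in LKO CD, and 4389 and 4078 in f/f HFD and 3592 and 3934 in LKO HFD. Each HFD library was below each CD library in these values, and mean FPKM was 1.29 times as high on CD. After quantile normalization the diets overlapped and the difference was -0.084 (SE 0.10, limma adjusted p = 0.633). Under the same scaling with genes at 0 in any library left out, *Alb* among them, it was -0.091 (adjusted p = 0.485). With no normalization it was -0.37 (limma adjusted p = 0.0164) and with each library centred on its median -0.34 (adjusted p = 0.021). *Fetub* passed under all 3 scalings, with -0.43 (adjusted p = 0.0163) and -0.40 (0.0184) under the other 2, and *Igfbp1* moved little (-1.97 and -1.94). Of 5 cystatin relatives of the fetuins (*Hrg*, *Kng1*, *Kng2*, *Cst3*, *Cstb*) none passed the limma adjusted threshold in any comparison. By diet over both labels 1 was higher and 1 lower at an unadjusted p under 0.05, against 14.9% and 13% of all genes tested.

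**Figure D2:**
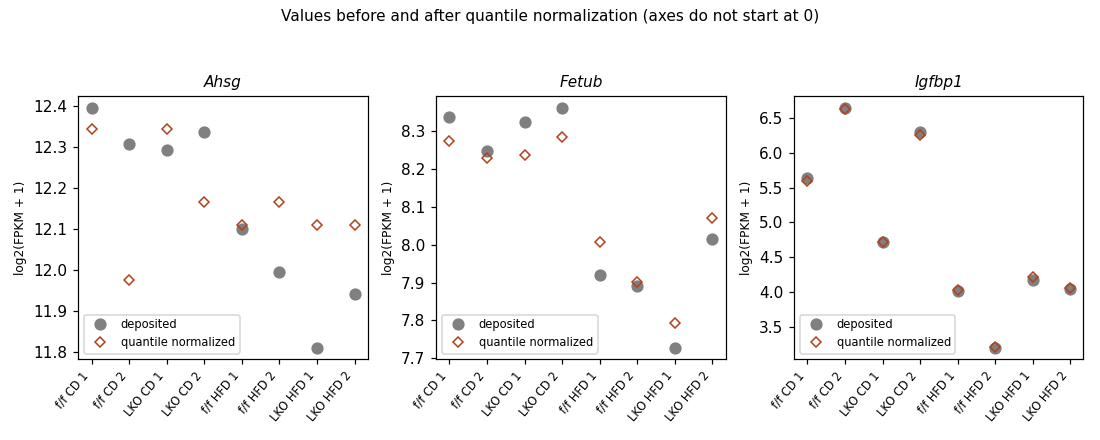
Points give log2(FPKM + 1) of *Ahsg*, *Fetub* and *Igfbp1* in the 8 libraries, as deposited (filled circles) and after quantile normalization (open diamonds), on axes that do not start at 0. In *Ahsg* f/f CD library 2 moves from 12.31 to 11.98, below the 4 HFD libraries, while *Igfbp1* is almost unmoved.

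*Angptl4* and *Angptl6* did not pass in any comparison. *Angptl4* was at 85.3 and 85.8 FPKM in f/f CD, 45.8 and 80.8 in LKO CD, 63.4 and 50.4 in f/f HFD and 56.5 and 55.6 in LKO HFD. Both f/f CD libraries were above the other 6. The difference was -0.47 by label on CD (SE 0.23, limma adjusted p = 0.461; -0.097 without LKO CD library 1 and -0.85 without LKO CD library 2), 0.017 by label on HFD (95% interval -0.53 to 0.56) and -0.54 by diet in f/f (SE 0.23, adjusted p = 0.267). Over both labels the diet difference was -0.29 (limma adjusted p = 0.297), and it was -0.48 (adjusted p = 0.0415) without LKO CD library 1, which alone brought it under the threshold, but -0.10 (adjusted p = 0.535) without LKO CD library 2 and -0.21 without f/f HFD library 2.

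*Angptl6* was at 4.20 and 2.15 FPKM in f/f CD and 4.31 and 3.70 in LKO CD, and at 6.94 and 5.13 in f/f HFD and 5.08 and 4.08 in LKO HFD. The f/f HFD libraries were the highest, and the other 3 groups overlapped. The diet difference was 0.79 in f/f (SE 0.24, limma adjusted p = 0.158), 0.19 in LKO (SE 0.24) and 0.49 over both (SE 0.17, adjusted p = 0.123). The last was 0.67 (adjusted p = 0.0483) without f/f CD library 1 and 0.31 (adjusted p = 0.223) without f/f CD library 2, and the difference in f/f was 0.43 to 1.14 with 1 library left out. *Angptl6* shares 265 exon bases, 16.8% of its own, with *A230050P20Rik* on the other strand, which was at 24.4 to 45.9 FPKM. The libraries were made with a kit that does not mark strand, so reads from the shared bases cannot be told apart. *A230050P20Rik* differed by 0.34 by diet in f/f (SE 0.17, limma adjusted p = 0.323) and by 0.53 by label on CD (SE 0.17, adjusted p = 0.3), and its part in the *Angptl6* values was not tested.

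Of 13 other genes of the angiopoietin-like family and of lipoprotein lipase control, 11 were tested. *Angptl8*, a feeding-induced member of the family that takes part in the control of lipoprotein lipase, was at 13.0 and 9.56 FPKM in f/f CD and at 33.1 and 30.3 in LKO CD. It was at 21.0 and 22.4 in f/f HFD and at 17.5 and 17.9 in LKO HFD, and no 2 groups overlapped. It rose on HFD in f/f by 0.93 (SE 0.13, limma adjusted p = 0.038) and fell by 0.78 in LKO (SE 0.13, adjusted p = 0.0357). By label it differed by 1.45 on CD (SE 0.13, adjusted p = 0.0575), and the interaction was -1.70 (SE 0.19, adjusted p = 0.11). Like *Inhbe* it was lowest in f/f CD, but its LKO CD libraries were the highest of all. With 1 library left out, these calls were kept in 1 of 8 fits in f/f and in 2 of 8 in LKO.

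By diet over both labels 3 genes of this list rose and 1 fell, against 5.04% and 4.86% of all genes tested. *Apoc2*, the lipase cofactor, rose by 0.39 (limma adjusted p = 0.0346), and *Gpihbp1*, which carries the lipase to the capillary wall, by 0.46 (adjusted p = 0.0452). *Lipg*, endothelial lipase, fell by 0.76 (SE 0.13, limma adjusted p = 0.0199). With 1 library left out the *Apoc2*, *Gpihbp1* and *Lipg* calls were kept in 1, 0 and 3 of 8 fits. *Lpl* was at 1.25 to 3.71 FPKM and differed by -0.33 (SE 0.19, adjusted p = 0.301).

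*Enho* was lowest in the LKO HFD libraries, at 5.76 and 7.81 FPKM. It was at 18.6 and 11.0 in f/f CD, 13.4 and 10.2 in LKO CD and 14.0 and 9.95 in f/f HFD, and these 3 groups overlapped. The difference by label on HFD was -0.72 (SE 0.27, limma unadjusted p = 0.0349, adjusted p = 0.47), and by diet in LKO -0.70 (SE 0.27, unadjusted p = 0.0389, adjusted p = 0.207). The interaction was -0.48 (SE 0.39, limma adjusted p = 0.74), and -0.11 to -0.83 with 1 library left out. The 2 comparisons share the LKO HFD libraries. *Enho* shares 15 exon bases, 1.18% of its own, with *Dnaic1* on the other strand, which was at 0 to 1.17 FPKM.

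By genotype label 0 of the 9 members passed limma on HFD, on CD or over both diets, where 0.043%, 0.0172% and 0.103% of all genes did. At an unadjusted p under 0.05 there were 2 on HFD (*Fgf21* higher, *Enho* lower), 2 on CD (*Fgf21* and *Inhbe*, both higher) and 3 over both, against 9.58%, 12.3% and 13.5% of all genes tested. After quantile normalization, libraries did not overlap by label for 4 members on HFD and 3 on CD, against 42.2% and 43% of all genes. In deposited FPKM *Ahsg* did not overlap by label on HFD either. For the interaction there were 0 passing and 1 at an unadjusted p under 0.05, *Inhbe*, against 0.0344% and 8.35%. With 2 libraries against 2 an exact two-sided permutation test cannot give a p below 0.333, so single genes were not tested that way.

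**Figure D3:**
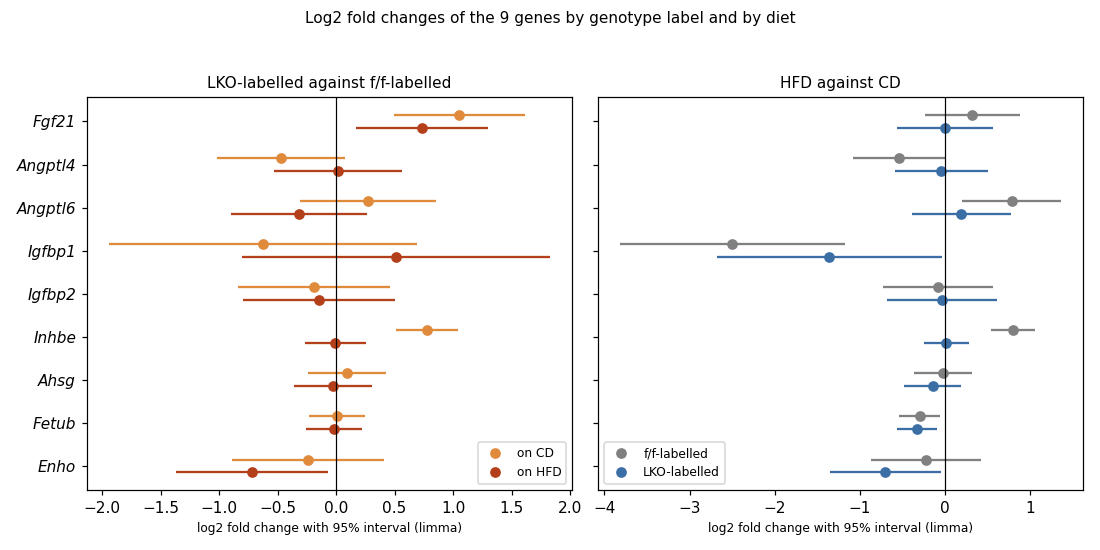
Points give the limma log2 fold change of each gene and horizontal lines its 95% interval, by genotype label on each diet (left) and by diet under each label (right). The *Fgf21* intervals lie above 0 on both diets, and *Inhbe* lies at 0.78 and 0.80 in the 2 comparisons against f/f CD and near 0 in the other 2.

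Of the transcription factors known to act on these genes or to work beside those that do, 20 were tested. By diet over both labels 5 rose on HFD and 0 fell, against 5.04% and 4.86% of all genes tested. *Nr1d1* (REV-ERBα, a repressor of the liver clock) rose by 1.20 (SE 0.10, limma adjusted p = 0.00358) and *Atf5*, a stress-responsive factor of the ATF family, by 0.62 (SE 0.11, adjusted p = 0.0204). *Hnf4a*, *Rxra* and *Pparg* rose by 0.28, 0.27 and 0.25. The *Nr1d1* call held with each of the 8 libraries left out in turn, whereas the *Hnf4a* and *Pparg* calls were lost whichever was left out. By label 0 passed on either diet. *Foxo1*, the insulin-sensitive factor of the *Igfbp1* element, was at 17.7 and 18.3 FPKM in f/f CD and at a mean of 9.19 ± 0.276 (SD, n = 2) in LKO CD (-0.88, SE 0.10, limma unadjusted p = 6.19e-05, adjusted p = 0.0757), and at 14.9 and 12.0 in f/f HFD and 11.5 and 12.3 in LKO HFD. *Ppara* differed by 0.065 by label on CD (SE 0.13, adjusted p = 0.875) and *Atf4* by 0.040 (SE 0.083, adjusted p = 0.876).

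Of 17 other targets of the integrated stress response 11 were tested. By diet over both labels 2 rose and 5 fell, against 5.04% and 4.86% of all genes tested. *Asns*, asparagine synthetase and a reference target of ATF4, was at 3.78 and 3.78 FPKM in f/f CD and 5.84 and 4.95 in LKO CD. It was at 0.690 and 1.01 in f/f HFD and 0.634 and 0.962 in LKO HFD, and fell by 1.59 (SE 0.11, limma adjusted p = 0.00181). *Ddit4* fell by 0.72, *Cebpb* by 0.55, *Cth* by 0.49 and *Ero1l* by 0.26. *Vldlr*, a lipoprotein receptor, rose by 1.13 and *Trib3*, a pseudokinase, by 0.77. The *Asns*, *Cth* and *Vldlr* calls held with each of the 8 libraries left out in turn, whereas *Cebpb* and *Trib3* were called in 2 of these 8 fits, *Ddit4* in 1 and *Ero1l* in 0. By label on CD, *Asns* differed by 0.41 (SE 0.15, limma adjusted p = 0.349) and *Ddit4*, an inhibitor of mTORC1, by -1.16 (SE 0.24, adjusted p = 0.196).

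Genes that mark fasting, insulin action and PPAR activity moved in both directions by diet. 19 were tested, and over both labels 6 rose and 3 fell, against 5.04% and 4.86% of all genes tested. *Cyp4a14*, a PPARα target, rose by 2.50 (SE 0.14, limma adjusted p = 0.000753), from 139 to 272 FPKM in the CD libraries to 685 to 1194 in the HFD libraries. *G6pc*, the glucose-6-phosphatase catalytic subunit and like *Igfbp1* repressed by insulin, fell by 2.04 (SE 0.096, limma adjusted p = 0.000531), and *Pck1* fell by 0.67 (SE 0.16, adjusted p = 0.0479). *Fasn*, fatty acid synthase, fell by 1.35. The *Cyp4a14*, *G6pc* and *Fasn* calls held with each of the 8 libraries left out in turn, and *Pck1* in 1 of 8. By label on HFD 0 passed limma, and 10 were higher and 1 lower at an unadjusted p under 0.05, against 5.46% and 4.12% of all genes tested. The list was chosen with earlier results of these data known, so these counts are a description and not a test. The 2 with the largest differences were *Cidec*, a lipid droplet protein (1.70, SE 0.26, limma adjusted p = 0.144), and *Cd36*, a fatty acid carrier (1.48, SE 0.28, adjusted p = 0.215). The summed FPKM of 6 adipocyte markers was 5.70 to 5.92 in the LKO HFD libraries and 0.312 to 3.08 in the other 6. Only 1 of these markers, *Cfd*, was above 1 FPKM in any library (1.63 by label on HFD, SE 0.45, limma adjusted p = 0.328). The part of adipocytes in these values was not tested.

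Of 18 other secreted factors of the liver 17 were tested. By diet over both labels 2 rose and 2 fell, against 5.04% and 4.86% of all genes tested. *Hamp*, the iron hormone hepcidin, fell by 1.62 (SE 0.20, limma adjusted p = 0.00794), from 1688 to 2627 FPKM on CD to 438 to 855 on HFD. *Orm1*, an acute phase protein, fell by 0.83 (SE 0.11, adjusted p = 0.0104). *Smoc1* rose by 0.39 (SE 0.052, adjusted p = 0.00926). *Selenop*, the selenium carrier, passed as higher by 0.47 (SE 0.077, limma adjusted p = 0.0169), but its deposited FPKM overlapped (3437 to 3653 on CD and 3348 to 3604 on HFD), as in *Ahsg* at the top of the abundance range. The summed FPKM of 7 stellate cell and fibroblast markers was 39.2 to 61.6 in the CD libraries and 69.7 to 94.5 in the HFD libraries. The markers did not move together over both labels. *Dcn*, *Reln*, *Lrat* and *Des* differed by 0.78, 0.62, 0.45 and 0.22. *Col1a1*, *Col3a1* and *Acta2* differed by -0.13, -0.14 and -0.081. The part of such cells in the diet differences was not tested.

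**Figure D4:**
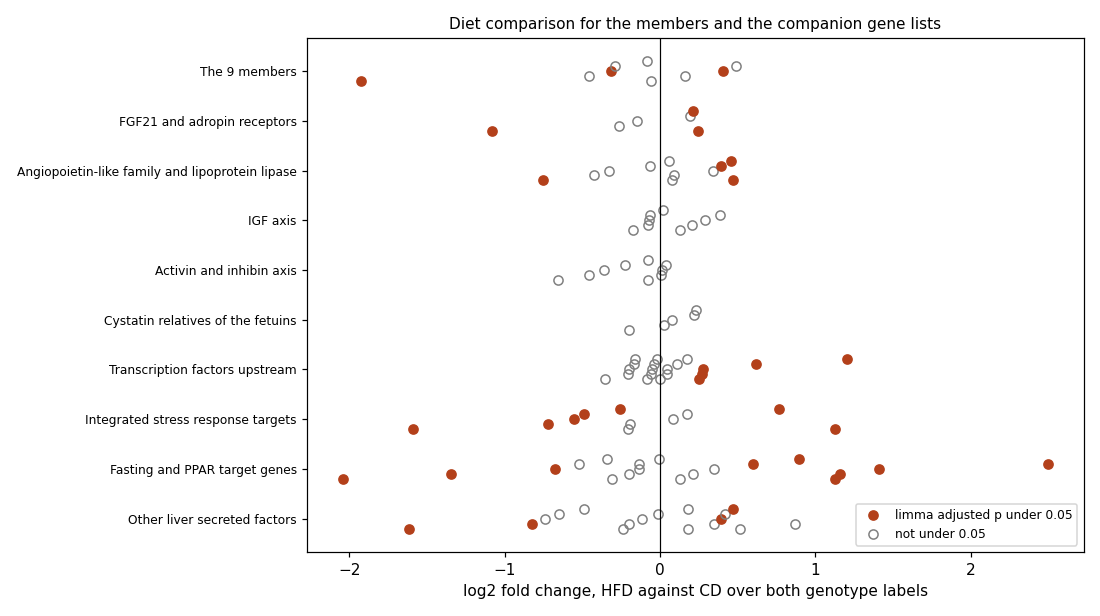
Each point is 1 gene, placed by its log2 fold change of HFD against CD over both genotype labels, with 1 row per gene list and vertical offsets only to separate points. Filled points passed a limma adjusted p of 0.05. 3 of the 9 members are filled, and no gene of the IGF axis, the activin and inhibin axis or the cystatin relatives is.

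Genes with the nearest profile were sought for the 4 members whose normalized log2 values spanned over 1, as the smallest mean absolute difference between deviations from each gene's own mean over the 8 libraries. For *Fgf21* they were *Fam131c* (0.16), *Apoa4* (0.17) and *Raet1d* (0.20), against a median over genes of 0.46. *Apoa4*, an apolipoprotein, was at 65.7 and 72.9 FPKM in f/f CD, 166 and 131 in LKO CD, 83.6 and 87.7 in f/f HFD and 242 and 123 in LKO HFD. Like *Fgf21*, by which it was chosen, it was higher in all 4 LKO-labelled libraries, a likeness that follows from the choice. For *Igfbp1* they were *Fabp5* (0.33), a fatty acid binding protein, *9030616G12Rik* (0.36) and *Ugt2b37* (0.36), against 1.00. For *Angptl6* they were *2810410L24Rik* (0.10), *Commd9* (0.12) and *Ufsp1* (0.12), and for *Enho* *Gm15756* (0.15), *Marcksl1-ps4* (0.18) and *Parp10* (0.18), against 0.29 and 0.37. *Marcksl1-ps4* is a pseudogene, whose reads may be shared with its parent gene. These are descriptions over 8 shared libraries, with no test.

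**Figure D5:**
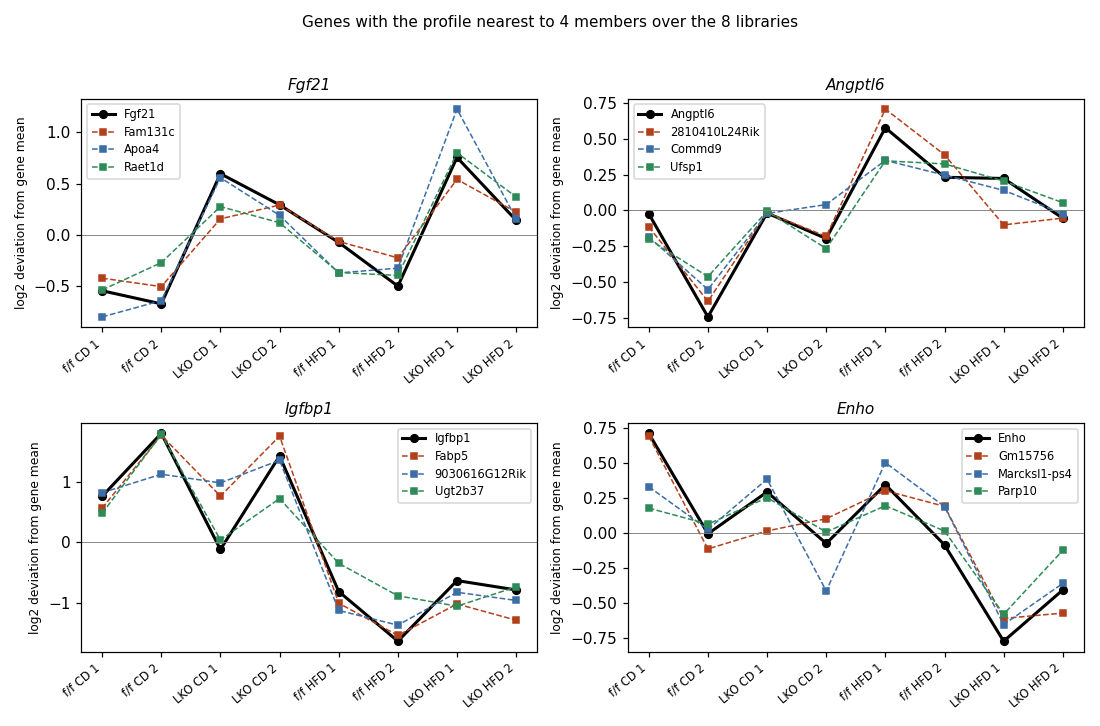
Lines join the deviation of each library from the gene's own mean on the normalized log2 scale, for *Fgf21*, *Angptl6*, *Igfbp1* and *Enho* (solid black) and the 3 genes nearest to each (dashed). *Apoa4* and *Fgf21* are above their means in the 4 LKO-labelled libraries and below in the 4 f/f-labelled ones, and *Enho* and its 3 neighbours are each lowest in LKO HFD library 1.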

How the data were processed

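Liver poly(A) RNA of 8 libraries was sequenced. The authors trimmed reads with cutadapt 1.0, aligned them to GRCm38 with TopHat2 2.0.7 and deposited FPKM from Cufflinks, not counts. Read counts per library were not used here, so no counting interval is given and the precision rests on 2 libraries per group.

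Genes above 1 FPKM in at least 1 library (11634 of 38283) were tested as quantile-normalized log2(FPKM + 1) with limma 3.58.1 in R 4.3.3, in a fit of the 4 groups with a mean-variance trend (4 residual and 2.8 prior degrees of freedom) and Benjamini-Hochberg adjustment over all genes in each of 7 comparisons, at a threshold of 0.05. The permutation procedure of the study was not run. In simulated data (11311 genes, LKO against f/f on HFD), 83% of genes changed by 1 (log2) were recovered and 99% of those changed by 2. Of 188 calls 6 were wrong. The changed genes were drawn only from those with a mean log2 value above 2, with independent normal noise around otherwise equal groups. The recovery therefore does not describe genes as low as *Fgf21*, whose group means were 1.28 to 2.33.

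Symbols came from GENCODE M21 (36341 matched) and sequences from RefSeq. All 9 genes are named. From companion lists, genes past the adjusted threshold are named (some are not reported here), otherwise at most 3 per list and comparison, and *Klb*, *Fgfr4*, *Lpl*, *Gpihbp1*, *Igf1*, *Inhbc* and *Gpr19* whatever they did. *Ppara*, *Atf4* and *Igfals* on HFD were read alongside. The members and lists were chosen with earlier results of these data known. Figures used matplotlib 3.10.9.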

Additional observations from a re-analysis of the deposited data

How the results depend on the processing

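The alternatives were no normalization, centring on the median, a pseudocount of 0.1 in place of 1, a filter of FPKM above 1 in all 8 libraries, no filter beyond FPKM above 0, limma without the trend, the replicate block, fits restricted to the 4 libraries compared, and fits without each of the 8 libraries. Leaving out genes at 0 in any library was chosen after seeing the data. Of 1044 values of the 9 genes, 986 kept their direction and side of the threshold, counting as kept 53 changes of sign where both values lay within 1 SE of 0. In 36 the call was lost, in 7 it was gained and in 15 the direction reversed.

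By diet in f/f the count of members called was 1. It was 2 with FPKM above 1 in all 8 libraries or with genes at 0 left out, where *Igfbp1* was added (limma adjusted p = 0.0442 and 0.0485). It was 0 with no filter, without the trend, with the replicate block or with 4 libraries, and 0 to 1 with 1 library left out. By diet over both labels it was 3, 4 with no normalization or median centring (*Ahsg* added), 2 without the trend (*Fetub* lost, adjusted p = 0.0584), 0 with no filter and 0 to 3 with 1 library left out. The block kept 3 but lost *Fetub* (adjusted p = 0.0631) and added *Angptl6* (0.0457). Same-numbered libraries come from different mice, and their deviations correlated at -0.0037 to 0.149 (-0.0611 to 0.0351 without genes at 0). They were therefore not paired in the main fit. The labels do not say what the numbers mean, and whether they mark a shared batch was not tested. In the other 5 comparisons it stayed at 0 under every alternative.

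*Ahsg* by label over both diets was -0.10 with no normalization and -0.10 median-centred, against 0.033. With 1 library left out, the ranges that crossed 0 beyond the SE were, by diet in f/f, *Ahsg* -0.19 to 0.17, by diet in LKO, *Angptl4* -0.42 to 0.33, *Fgf21* -0.30 to 0.31 and *Igfbp2* -0.45 to 0.38, and by diet over both, *Igfbp2* -0.27 to 0.15. By label on CD they were *Angptl6* -0.084 to 0.63, *Igfbp1* -1.39 to 0.15 and *Igfbp2* -0.61 to 0.23, by label on HFD *Fetub* -0.16 to 0.12, by label over both *Angptl6* -0.20 to 0.16, *Fetub* -0.075 to 0.066 and *Igfbp1* -0.44 to 0.33, and for the interaction *Igfbp2* -0.38 to 0.46. The cause was not tested.

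Over all genes, 155 were called by diet in f/f, against 323 (all 8 above 1), 46 (no filter), 42 (no trend), 34 (block), 5 (4 libraries), 297 (no zeros) and 14 to 49 with 1 library left out. In LKO 351 became 570, 135, 229, 223, 0, 568 and 21 to 154, and over both labels 1151 became 704 with no filter and 374 to 816 with 1 left out. By label 5 on HFD became 24 (no filter) and 4 to 21, 2 on CD became 7, 10, 4 (no trend), 1 (pseudocount), 0 (4 libraries), 9 (no zeros) and 2 to 19, and 12 over both became 50, 28, 7 (no normalization), 38 (no zeros) and 13 to 30. Of 32 companion genes called by diet over both labels, 13 stayed called whichever library was left out and 6 were lost whichever was left out.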
